A study of Mus musculus with 2 samples.

Results

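Brown adipocytes burn fat to make heat, and a small group of genes marks them and sets that function. The 9 genes described here are Ucp1, the uncoupling protein that lets protons cross the inner mitochondrial membrane without making ATP; Ucp3, its relative in skeletal muscle; Dio2, the deiodinase that makes active thyroid hormone; Elovl3, a fatty acid elongase; the transcription factors Prdm16, Ebf2 and Zic1; Otop1, a proton channel; and Adrb3, the adrenergic receptor of adipocytes. They were taken as the probe sets annotated to exactly 1 of these symbols, on both arrays and with dim signals kept. That gave 17 of 34945 probe sets with 1 symbol, for 8 of the 9 genes among 18193 genes in all. Adrb3 has no such probe set in the annotation used and is not analysed here. The genes were chosen by their signals on these same 2 arrays, so what follows is a description.

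The RNA came from skeletal muscle of male mice aged 3 months, wild-type or null for Jhdm2a. Jhdm2a, now Kdm3a, is a demethylase of lysine 9 on histone H3. It is known from work on such mice for a role in Ucp1 and Ppara expression, which was not tested here. Both genotypes have the same strain label, derived from 129 embryonic stem cells and backcrossed to C57BL/6 for 4 generations. Which muscle was taken, and whether the null mice lack the gene in every cell, is not stated in the labels. Each genotype was 1 Affymetrix mouse expression array carrying RNA combined from 3 mice, so there is no replicate check and no p-value, and the number of arrays limits the precision.

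Values are MAS5 signals, an array's linear brightness for a probe set after its mismatch background has been taken off. A floor of 182, the 60th percentile of all signals, stands in for detection calls, and 18004 and 18026 probe sets exceeded it on the arrays labelled wild-type and null. A gene was measured when a probe set lay above the floor on both arrays, and its value is the mean log2 ratio, null-labelled over wild-type-labelled, of those probe sets. Where only 1 array was above the floor, at 2 times it or more, the fold is a bound against the floor. Of 9696 measured genes, 2.36% were at least 2-fold lower and 0.371% at least 2-fold higher on the null-labelled array, and the median log2 ratio was 0.04. Probe sets of 1 gene differed with a pooled SD of 0.29 on the log2 scale. Kdm3a itself read 406 and 488, not lower in the RNA labelled null, so directions rest on the labels.

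In brown fat, cold acts through noradrenaline, β-adrenergic receptors and cyclic AMP to switch on Ucp1 and Dio2, while PRDM16 and EBF2 help hold the cells in the brown fate and away from the muscle fate. Zic1 marks classical brown fat, whose precursors share an embryonic origin with muscle. The cyclic AMP response acts through short promoter and enhancer elements, as do PPAR nuclear receptors. Promoter sequences are therefore shown for Ucp1 and Otop1, which were far lower on the null-labelled array, and for Ucp3, which was not lower. That of Dio2 is also shown. Its brightest probe set was at least 5.26-fold lower, while its gene value was within 2-fold. Each is the 250 bases before the gene's start in RefSeq on GRCm38.p6, read along the gene's strand. Capitals mark matches to any of 9 searched motifs.
Ucp1, chr8:83290098-83290347, plus strand: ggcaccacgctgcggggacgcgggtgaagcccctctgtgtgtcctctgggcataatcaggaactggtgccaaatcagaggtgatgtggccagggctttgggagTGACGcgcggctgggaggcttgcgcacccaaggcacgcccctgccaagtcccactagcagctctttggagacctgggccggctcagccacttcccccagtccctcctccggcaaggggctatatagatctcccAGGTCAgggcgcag
Otop1, chr5:38277154-38277403, plus strand: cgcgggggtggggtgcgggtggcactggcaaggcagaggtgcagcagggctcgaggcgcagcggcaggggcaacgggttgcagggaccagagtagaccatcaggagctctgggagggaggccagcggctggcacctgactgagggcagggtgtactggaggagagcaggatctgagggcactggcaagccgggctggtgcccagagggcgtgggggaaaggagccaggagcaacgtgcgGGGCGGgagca
Dio2, chr12:90739039-90739288, minus strand: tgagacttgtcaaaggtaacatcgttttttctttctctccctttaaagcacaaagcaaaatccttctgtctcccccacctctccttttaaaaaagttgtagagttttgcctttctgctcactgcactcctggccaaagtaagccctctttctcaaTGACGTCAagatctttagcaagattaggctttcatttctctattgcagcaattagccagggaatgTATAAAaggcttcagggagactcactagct
Ucp3, chr7:100472741-100472990, plus strand: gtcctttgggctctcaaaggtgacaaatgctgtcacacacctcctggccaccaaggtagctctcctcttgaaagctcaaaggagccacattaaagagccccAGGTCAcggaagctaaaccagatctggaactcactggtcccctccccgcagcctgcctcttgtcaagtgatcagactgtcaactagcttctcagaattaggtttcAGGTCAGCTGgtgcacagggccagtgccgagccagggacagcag

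Both strands were searched for the cyclic AMP response element TGACGTCA and the shorter TGACG within it, the PPAR element AGGTCANAGGTCA and the single AGGTCA within it, the EBF site TCCCNNGGGA, the TATA box TATAAA, the CCAAT box CCAAT, the GC box GGGCGG and the muscle E-box CAGCTG. RefSeq promoters were found for 6 of the 9 genes. The Dio2 promoter holds the full TGACGTCA, starting 95 bases before the start, and TATAAA at 30 bases. Of 32851 mouse promoters of the same length, 1.55% hold TGACGTCA and 12.4% TATAAA. Ucp1 has TGACG at 147 bases and AGGTCA at 14, letters found in 17.8% and 14.0% of promoters. Ucp3 has AGGTCA at 149 and 44 bases, the nearer one overlapping a CAGCTG that 13.0% of promoters hold. The Otop1 window has 1 match, GGGCGG at 11 bases, found in 32.7% of promoters. The windows of Prdm16 and Zic1, not printed, hold GGGCGG and CCAAT, the latter in 33.8% of promoters. The full PPAR element (0.0335% of promoters) and the EBF site (0.779%) matched in none of the 6 windows, which says only that these letters are not there. Base composition differed, with 41.6% G and C in the Dio2 window and 54.8% in that of Ucp3, against 64.8% for Ucp1 and 70.0% for Otop1 and a median of 52.4% over all promoters.

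Ucp1, Otop1 and Elovl3 were much lower on the null-labelled array, Ebf2 was lower by less, and Ucp3 was not lower. Dio2, Prdm16 and Zic1 had gene values within 2-fold, that of Dio2 resting on 1 of its 3 probe sets. Of the 17 probe sets, 14 read lower on the null-labelled array and 3 higher, where 47.7% of all named probe sets read lower. By deposited signals 8 of the 17 were at least 2-fold lower, against 9.82% of all named probe sets. Only 8 of the 17 lay above the floor on both arrays, 5 did so on the array labelled wild-type alone and 4 on neither. Of 16355 named probe sets that exceeded the floor with wild-type-labelled RNA, 5.82% lay under it on the other array. In all, 6 genes were measured, 2 of them (Ucp1 and Ebf2) at least 2-fold lower, as 2.36% of all measured genes were, and 4 within 2-fold. A further 2, Otop1 and Elovl3, had bounds lower on the null-labelled array, a state that 0.919% of genes measured or bounded shared. Because these genes were picked with the values in view, nothing is read from these counts.

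**Figure D1:**
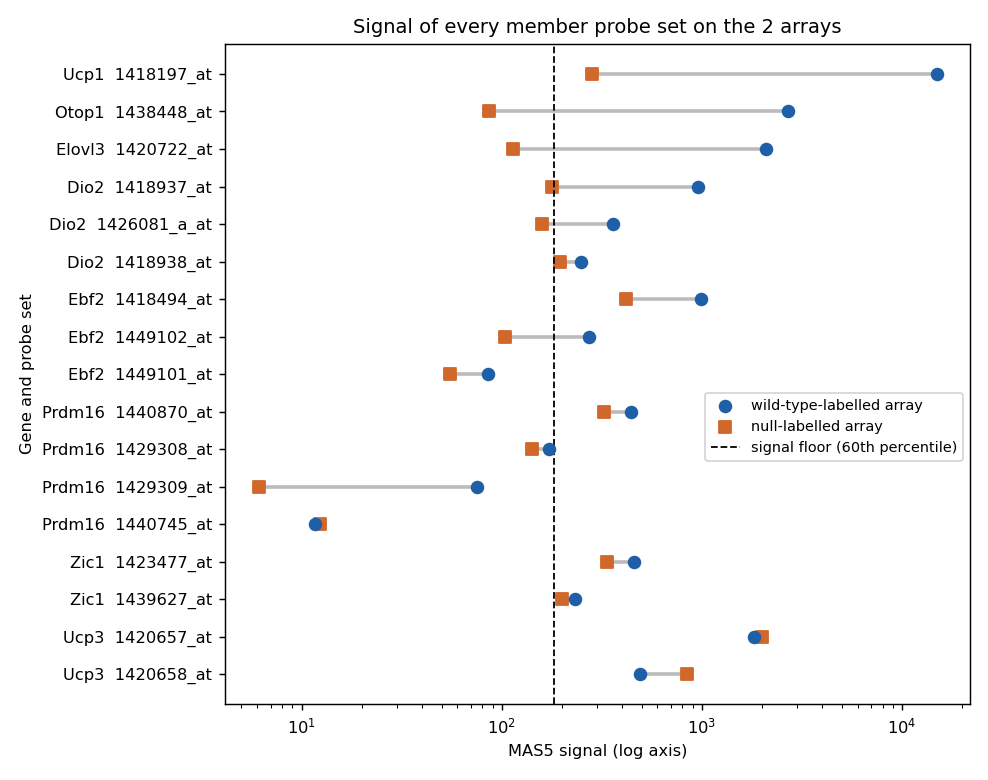
MAS5 signal (log axis) of each of the 17 probe sets on the wild-type-labelled array (circles) and the null-labelled array (squares), with the floor of 182 dashed. Ucp1, Otop1 and Elovl3 show the widest gaps among probe sets above the floor on at least 1 array, and both Ucp3 probe sets read higher on the null-labelled array.

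Ucp1, probe set 1418197_at, read 14885 on the array labelled wild-type and 283 on that labelled null. That remaining signal stood just above the floor of 182, so the ratio leans on a dim value. The log2 ratio of -5.71 was the lowest of the 9696 measured genes. Genes under the floor on 1 array, such as Otop1, have only a bound and could not be ranked with it. Among genes above the floor on both arrays and at 2 times it on at least 1, the following 5 had ratios nearest to that of Ucp1 over the 2 arrays. Cidea, a lipid droplet protein of brown fat, differed from it by 0.51 on the log2 scale and Pygl, the liver form of glycogen phosphorylase, by 0.90. Prkar2b, a protein kinase A regulatory subunit enriched in fat, differed by 0.94, Pck1, an enzyme of glyceride-glycerol synthesis in fat, by 1.17, and Elovl6, another fatty acid elongase, by 1.28. On the null-labelled array Prkar2b read at most 212 and Elovl6 237, nearer the floor than Ucp1.

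Otop1 and Elovl3 were bright on 1 array and under the floor on the other. Otop1, a proton channel better known from sour taste, read 2689 on the array labelled wild-type and 86.6 on that labelled null in its only probe set, 1438448_at. That is at least 14.8-fold lower against the floor, the 4th largest of 90 such bounds. Elovl3, which lengthens saturated and monounsaturated fatty acids and is strongly cold-induced in brown fat, read 2092 and 114 in 1420722_at. Its bound was at least 11.5-fold lower, the 9th largest. Both null-labelled signals lie under the floor, where no order is read.

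The Dio2 probe sets gave different sizes of the same direction. The brightest, 1418937_at, read 958 on the array labelled wild-type and 177 on that labelled null, at least 5.26-fold lower. The second, 1426081_a_at, read 359 and 158, the former short of 2 times the floor, so no bound is given. The third, 1418938_at, read 248 and 196, a log2 ratio of -0.34, and was the only one above the floor on both. The gene value of -0.34 therefore comes from 1 of the 3. With dimmer signals raised to the floor, the mean over all 3 was -1.24.

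**Figure D2:**
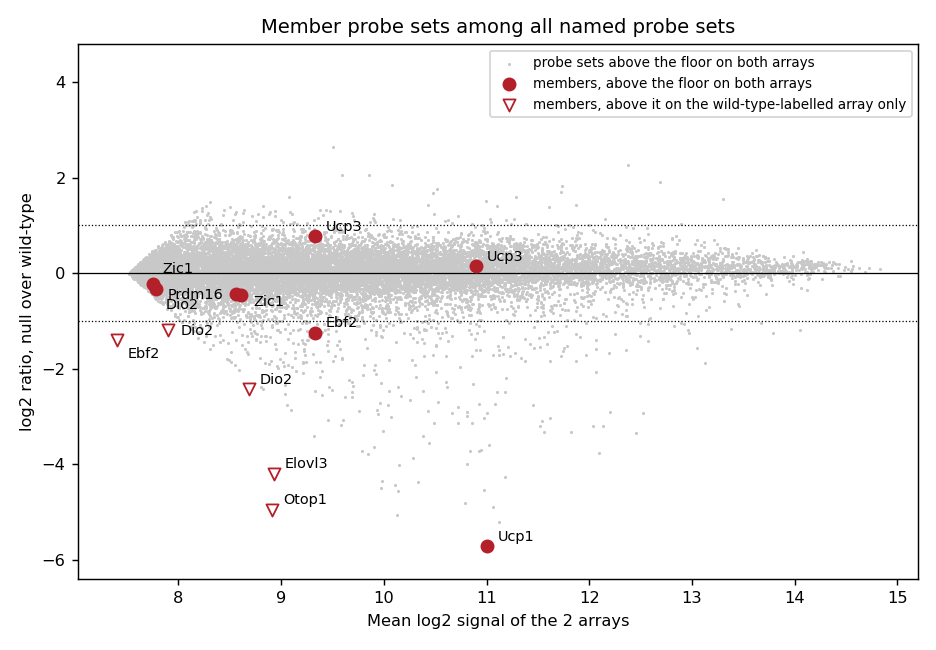
Log2 ratio, null over wild-type, against mean log2 signal for all named probe sets above the floor on both arrays (grey), with the brown adipocyte and uncoupling protein probe sets in red; open triangles passed the floor with wild-type-labelled RNA alone and are drawn at their deposited ratio. Dotted lines mark 2-fold; Ucp1 lies below every grey point and both Ucp3 probe sets lie above 0.

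Among the transcription factors, Ebf2 differed most. EBF2 opens brown-selective genes in preadipocytes and mature brown fat. Its brightest probe set, 1418494_at, read 991 on the array labelled wild-type and 418 on that labelled null, 2.37-fold lower. Probe set 1449102_at read 274 and 104, the second of these under the floor, and 1449101_at read 85.8 and 54.9, under it on both. All 3 were lower, with deposited log2 ratios of -1.25, -1.40 and -0.64.

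Prdm16 and Zic1 were within 2-fold. PRDM16 is a zinc finger coregulator that favours brown over muscle and white fat genes. Its probe set 1440870_at read 440 on the array labelled wild-type and 326 on that labelled null, a log2 ratio of -0.43, and was the only one of 4 above the floor. Of the other Prdm16 probe sets, 1429309_at had the widest ratio, 75.6 against 6.1, but both signals lie under the floor. The Zic1 probe sets read 457 and 334 in 1423477_at and 234 and 199 in 1439627_at, so both were lower on the null-labelled array. The mean log2 ratio of Zic1 was -0.34 ± 0.16 (SD of 2 probe sets). Of all measured genes 9.89% had a lower ratio than Prdm16 and 13.6% a lower one than Zic1, so neither stood at the edge of the distribution.

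Ucp3, whose protein exports fatty acid anions or limits oxidative stress in muscle mitochondria in current models, went the other way from Ucp1. Probe set 1420657_at read 1815 on the array labelled wild-type and 2004 on that labelled null, 1.10-fold higher. Probe set 1420658_at read 491 and 841, 1.71-fold higher. The mean log2 ratio was 0.46 ± 0.45 (SD of 2 probe sets), a spread as wide as the value. Of all measured genes 92.7% had a lower ratio. From the brighter probe set alone the log2 ratio of Ucp3 was 0.14, beside a pooled SD of 0.29 between probe sets of 1 gene. That SD comes from the same 2 arrays and does not measure the spread between mice or arrays.

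Relatives of these genes were mostly dim or within 2-fold, with Elovl6 the exception. Of 25 paralogs listed, 19 had a probe set with 1 symbol and 7 were measured. At least 2-fold lower was 1 of the 7 and 0 were higher, where 2.36% and 0.371% of all measured genes were. Elovl6, which elongates palmitate in fat synthesis, read 5133 on the array labelled wild-type and 237 on that labelled null, a log2 ratio of -4.44. The latter signal stood just above the floor. Elovl5, an elongase of polyunsaturated fatty acids, had -0.76 ± 0.08 (SD of 2 probe sets), and the widely expressed Elovl1 had 0.09 ± 0.10 (SD of 3 probe sets). Slc25a30, a mitochondrial carrier related to the uncoupling proteins, had -0.54 ± 0.41 (SD of 3 probe sets). Ebf1, an adipogenic paralog of Ebf2, had -0.50 ± 0.51 (SD of 4 probe sets of mixed sign), Ebf3 -0.09 and Mecom, a paralog of Prdm16, 0.04. Dio1, Zic2, Zic4, Zic5, Otop2 and Otop3 were under the floor on both arrays. Ucp2 had no probe set with 1 symbol.

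Other brown fat effector genes split into a part that was low and a part that was level. Of 25 listed, 17 were measured and 8 of them were at least 2-fold lower, with 0 at least 2-fold higher. Another 3 had bounds lower. Of all measured genes 2.36% were at least 2-fold lower and 0.371% higher, and 0.919% of genes measured or bounded had bounds lower. The median log2 ratio was -0.95, or -1.47 with the bounds counted, against 0.04 over all measured genes. Cidea read 13567 on the array labelled wild-type and 367 on that labelled null. Letmd1, a mitochondrial protein needed for brown fat thermogenesis, had -3.83 ± 0.05 (SD of 2 probe sets), and Acsl5, which activates fatty acids, -2.93. S100b, a calcium-binding protein made in brown fat and Schwann cells, had -2.46, and the acyl-CoA thioesterase Acot11 had -2.31. Kcnk3, a potassium channel of brown adipocytes, read 2458 and 75.9 in its brightest probe set, at least 13.5-fold lower. The fatty acid transporter Slc27a2 was at least 12.7-fold lower and the secreted factor Nrg4 at least 5.05-fold lower. Of the other measured effectors, Pank1, a pantothenate kinase, had -1.88 ± 0.52, Gpd2, the mitochondrial glycerol phosphate dehydrogenase, -1.70 ± 1.19 and Acaa2, a thiolase, -0.95 ± 0.29 (each the SD of 3 probe sets). Plin5, a lipid droplet coat protein, had -1.24 ± 0.21 (SD of 2 probe sets) and Acadvl, an acyl-CoA dehydrogenase, -0.58. Some lay near 0. Cox7a1 and Cox8b, cytochrome oxidase subunits of muscle and brown fat, had 0.03 and -0.13, Pdk4, a pyruvate dehydrogenase kinase, -0.11, and Fabp3, the fatty acid binding protein of heart and muscle, 0.25.

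**Figure D3:**
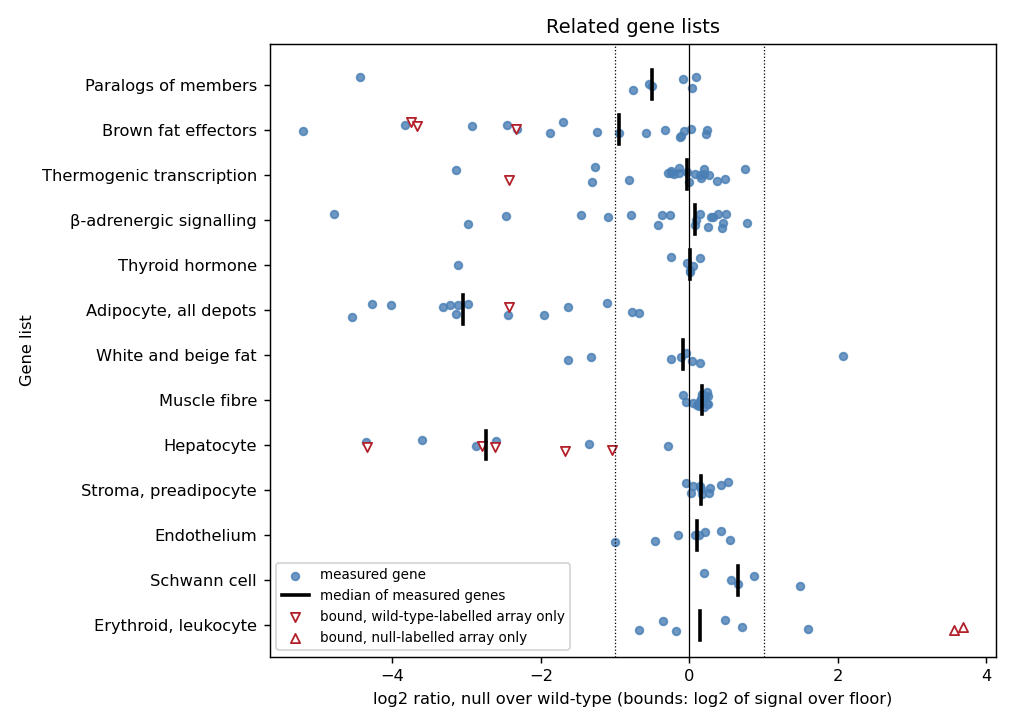
Log2 ratio, null over wild-type, of each measured gene (points) in 13 lists, with the list's median of measured genes (black bar) and genes above the floor on 1 array drawn as triangles at the log2 of signal over floor. The adipocyte and hepatocyte lists lie furthest to the left, at medians of -3.05 and -2.73, and the muscle fibre genes sit in a narrow band around 0.17.

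Upstream of Ucp1, most regulators were within 2-fold and a few were low. In the list of thermogenic transcription genes 3 of 21 measured were at least 2-fold lower and 0 higher. The shares over all measured genes were 2.36% and 0.371%. The median of the list was -0.03. Cebpa, an adipogenic factor, had -3.14, Tle3, a corepressor that also serves adipogenesis, -1.31, and Ppara, the receptor of fatty acid oxidation, -1.27 ± 0.16 (SD of 3 probe sets). Pparg, the master factor of adipocytes, read 983 and 56.7, at least 5.4-fold lower. The coactivator Ppargc1b had -0.82, and Ppargc1a, which cold induces in brown fat, had 0.16 ± 0.12 (SD of 5 probe sets). Zfp516, a cold-induced activator of Ucp1, had the highest value at 0.75, from 1 probe set that read 303 and 510. Ehmt1, a methyltransferase of the histone mark that Kdm3a removes and a partner of PRDM16, had 0.00.

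The β-adrenergic list had 5 of 20 measured genes at least 2-fold lower and 0 higher, where 2.36% and 0.371% of all measured genes were. The lowest were Prkar2b at -4.78 ± 0.41 (SD of 2 probe sets), the hormone-sensitive lipase Lipe at -2.98 and Pde3b, an insulin-activated phosphodiesterase of fat, at -2.47. The brightest Prkar2b probe set read 6502 and 194, the latter just above the floor, so its ratio leans on a dim value. Adcy3, an adenylyl cyclase of adipocytes, had -1.46 ± 0.74 (SD of 2 probe sets), and Pnpla2, the first lipase of triglyceride breakdown, -1.10. The broadly expressed Gnas, Creb1 and Atf2, a G protein subunit and 2 cyclic AMP responsive factors, had 0.07, 0.14 and 0.09. In the thyroid hormone list, which bears on Dio2, 1 of 7 measured genes was at least 2-fold lower and 0 higher, beside the same shares. That gene was Thrsp, a thyroid-responsive lipogenic factor of fat, at -3.12 ± 0.28 (SD of 2 probe sets). The receptor Thra had -0.25 ± 0.13 (SD of 3 probe sets), while Dio1 and Thrb were under the floor on both arrays.

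Markers of fat and liver cells were lower on the same array as the brown fat genes. The adipocyte list, which fat of any depot expresses, had 12 of 14 measured genes at least 2-fold lower and 0 higher. The shares over all measured genes were 2.36% and 0.371%. All 14 gene values were below 0, as 44.3% of all measured genes were. Car3, at -0.67 ± 0.82 (SD of 4 probe sets), had probe sets of mixed sign. The signals of the list summed to 212119 with wild-type-labelled and 82294 with null-labelled RNA over 33 probe sets. That sum is weighted to bright probe sets such as those of Car3, which muscle also makes. The median log2 ratio of the 14 genes was -3.05, or -2.98 with the bound of Pparg counted. Adipoq, the hormone adiponectin, read 11443 and 1145. Fabp4, the fatty acid binding protein of adipocytes, read 25614 and 11296 in its brightest probe set. Of the listed adipocyte genes with a probe set of 1 symbol, Pparg and Lep were the 2 with none above the floor in null-labelled RNA. Retn, a hormone mainly of white fat in mice, read 1051 and 338. Lep, the hormone leptin, read 198 and 13.5, the first just above the floor. The hepatocyte list had 5 of 6 measured genes at least 2-fold lower. Another 5 had bounds lower, as 0.919% of genes measured or bounded did. The summed signal of the list was 37786 against 4629, a sum weighted to bright genes. Among these, Hp read 7243 and 598, Cyp2e1 read 4643 and 1824 and Apoc1 read 4566 and 223. Ttr read 3707.5 and 162 in its brightest probe set, at least 20.4-fold lower. Whether the listed genes mark liver cells alone was not tested. Alb, serum albumin, read 2635 and 361. Ucp1 and Otop1 are in neither list. The part of fat or liver tissue in the brown fat values was not tested. In a bulk sample, fewer cells of a type and less RNA per cell cannot be told apart.

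Muscle fibre genes differed little, and other cell types of muscle were mixed. All 18 muscle fibre genes were measured, 0 of them differed by 1.5-fold, where 6.27% of all measured genes were at least that much lower and 3.35% higher. Their log2 ratios ran from -0.09 for Myh7, the slow myosin, to 0.26 for Mylpf, a fast light chain. Acta1, skeletal actin, read 16840 on the array labelled wild-type and 19992 on that labelled null, so the tissue label fits its defining markers on both. Of 10 measured stromal and preadipocyte genes 0 were past 1.5-fold, with Pdgfra, a receptor of fat precursors, at 0.17. Of 8 endothelial genes 1 was at least 1.5-fold lower, Kdr, a receptor for vascular growth factor, which read 712 and 356. White and beige fat genes were mixed over 8 measured, with 2 at least 2-fold lower, Retn and Nnmt, a methyltransferase, and 1 higher, Tbx1. Of all measured genes 2.36% were at least 2-fold lower and 0.371% higher. Tbx1, a T-box factor of beige fat and of muscle development, read 377 and 1579. All 5 measured Schwann cell genes were above 0, with a median of 0.65, where 44.3% of all measured genes were below 0. At least 1.5-fold higher were 3 of the 5, as 3.35% of all measured genes were. At least 2-fold higher was 1, Ncmap, which read 189 and 531, beside a share of 0.371%. Of 6 measured erythroid and leukocyte genes 1 was at least 2-fold higher, the red cell anion exchanger Slc4a1 at 1.60, and the neutrophil genes S100a8 and S100a9 had bounds higher, as 0.112% of genes measured or bounded did.

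The nearest measured genes on either side of 7 of these genes in RefSeq order were all within 2-fold. Only genes above the floor on both arrays could be taken, so others were passed over and those taken need not be adjacent. The neighbours taken lay from 2.83 kb (C2cd3, beside Ucp3) to 816 kb (Gtf2a1, beside Dio2) away. Of 14 such neighbours 0 were at least 2-fold lower and 0 higher, where 2.36% and 0.371% of all measured genes were, and their log2 ratios ran from -0.51 to 0.74 with a median of 0.01. Beside Ucp1, Rnf150 and Elmod2 had 0.09 and -0.06. Beside Otop1, Tmem128 and Wdr1 had -0.45 and 0.17, and beside Elovl3, Nolc1 and Gbf1 had 0.00 and 0.02. The Ebf2 neighbours Ppp2r2a and Kctd9 had 0.22 and 0.74, and those of Ucp3, C2cd3 and Mrpl48, had -0.35 and -0.05. Zic1 had no measured neighbour within 1000 kb.

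**Figure D4:**
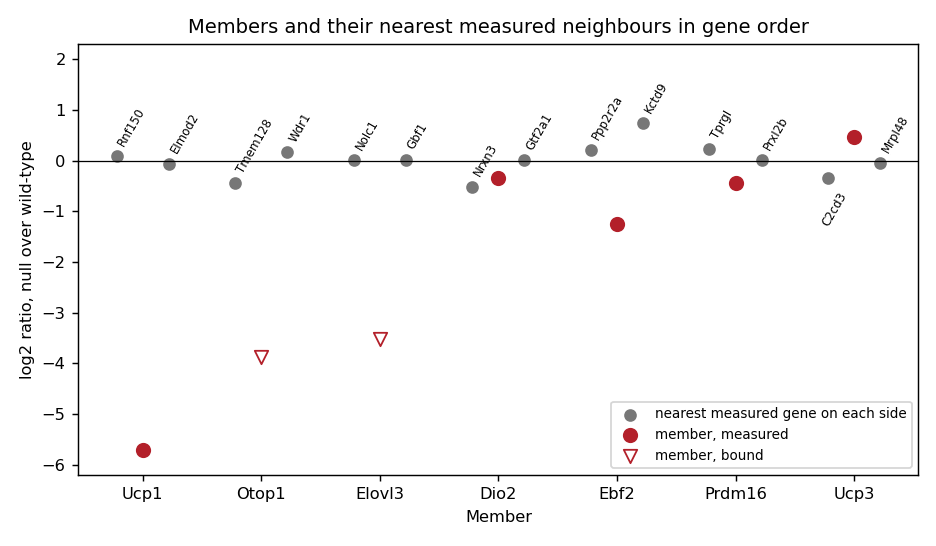
Log2 ratio, null over wild-type, of 7 brown adipocyte and uncoupling protein genes (red; open triangles are bounds) and of the nearest measured gene on each side in RefSeq gene order (grey). The 14 neighbours lie between -0.51 and 0.74, while Ucp1 lies at -5.71.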

How the data were processed

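The deposited table gives linear signal intensity for each probe set, made by the authors with MAS5 per the submitters' processing notes; the version and scaling target are not given in the sources used here. Per the labels' protocols, 7 µg of total RNA was labelled and 15 µg of fragmented cRNA hybridised. Both deposited columns had a 2% trimmed mean of 500.003, so rescaling to 1 trimmed mean changed little. The table used here has no detection calls. Of 45037 non-control probe sets, 34945 had 1 symbol, 932 several and 9160 none in the platform annotation; 64 control probe sets set no floor and entered no gene value. A gene counted as 2-fold or 1.5-fold different only if its measured probe sets had 1 sign. No test was run, since 1 array per genotype leaves no residual degrees of freedom. The genes and the 13 related lists were chosen with earlier results of these data known. Named genes were the 9 with every probe set, Kdm3a, the 5 measured genes nearest to Ucp1 in log2 ratio, measured paralogs, up to 5 of each list with the largest absolute ratios or bounds, and a set of fat, muscle and liver genes. Creb1, Atf2, Gnas, Pank1, Gpd2, Acaa2, Plin5, Acadvl, Pdk4, Fabp3 and Ehmt1 fall outside that rule and were picked once their values were known. The same holds for Car3, Myh7, Thrb, the paralogs under the floor and the neighbours. Python 3.11.15 with pandas 2.3.3, scipy 1.17.1 and statsmodels 0.14.6 was used, and the steps were tested on simulated data. The simulated noise was the pooled SD between probe sets, not the spread between mice. Known changes were placed in measured genes and were smaller than that of Ucp1, and bounds were not checked. The 9 alternatives covered scaling (deposited values, quantile, median centring, loess with a span of 0.3), floors, the brightest probe set and a pseudocount of 50. The brightest probe set was taken among those above the floor on both arrays, so Dio2 kept 1418938_at.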

Additional observations from a re-analysis of the deposited data

How the results depend on the processing

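Under the 9 alternatives the count of brown adipocyte and uncoupling protein genes past 2-fold or with a bound ran from 4 to 5. The 4 scaling alternatives moved no gene of the 9 by as much as the pooled SD between probe sets. The floor mattered most. At the 75th percentile Ucp1 had only a bound of at least 31.9-fold lower (log2 of -5.00), and the median over measured genes of the 9 was 0.46, the value of Ucp3, because the others were no longer measured. That median was -0.39 at the reported floor, -1.25 with the floor at the 50th percentile and -1.21 with none. Genes of the related lists at least 2-fold lower numbered 33 at the reported floor, 19 at the 75th percentile and 53 with no floor, and over all genes the counts lower and higher were 229 and 36, then 113 and 11, then 1527 and 927. Dio2 had -1.32 with the floor at the 50th percentile and with none. Ratios with no floor were 31.1-fold lower for Otop1, 18.4-fold for Elovl3 and 2.09-fold for Prdm16. With the pseudocount the bounds were at least 11.8-fold and 9.23-fold lower for Otop1 and Elovl3. From the brightest probe set Ucp3 had 0.14. Brown fat effectors had a median of -0.45 at the 75th percentile and -0.58 from brightest probe sets. Prdm16 and Zic1 had no value at the 75th percentile. No paired analysis was possible because each genotype is 1 pooled array. Depth cannot be given for arrays; signals near the floor have no order.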
